A study of Mus musculus with 18 samples.

Results

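Mitosis and G2 genes are 54 genes that proliferating cells use between the end of DNA replication and the completion of cell division. They were chosen by name, as cell cycle genes of G2 and M phase, with earlier results of these data known. All 54 had a row in both deposited tables of 54279 rows each. They were sorted by the role of their products into 11 groups. The RNA came from oligodendrocyte progenitor cells (OPCs) that had been made from mouse epiblast stem cells. The CRISPR-Vhl cells carried an edit of Vhl, and the CRISPR-Control cells served as their reference. In the first experiment Vhl and control OPCs received no drug. In the second, Vhl and control OPCs were switched after a day to medium with AZD8330, which inhibits MEK1 and MEK2, at 300 nM, or with DMSO, its solvent, and were lysed 14 hours later. All cells were grown in DMEM F12 with N2max, B27, Fgf2 and Pdgfa, so both growth factors were present in every group. Each of the 6 groups had 3 libraries, lettered A to C. The labels do not give the edited site in Vhl, do not say whether the edited cells were a clone, and do not tell whether the 3 libraries of each group were grown separately. Every p-value therefore reflects library-to-library spread alone, which may be technical.

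A cell enters mitosis when cyclin B and the kinase Cdk1, freed of inhibitory phosphate by the Cdc25 phosphatases, become active together. Chromosomes then condense, attach through kinetochores to a spindle built by motor and crosslinking proteins, and stay joined until the spindle checkpoint releases Cdc20, which activates the anaphase-promoting complex. Transcripts of these proteins accumulate late in the cell cycle under MuvB complexes with Mybl2 and Foxm1, and are held down in resting cells by the related DREAM complex. OPCs are the dividing precursors of oligodendrocytes, and Pdgfa and Fgf2, which signal partly through MEK, are known to keep them in cycle. The protein made from Vhl targets the alpha subunits of HIF for degradation when oxygen is present.

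The promoters of members were examined for sequence elements of which some members are classic carriers. The part of these elements in the changes reported here was not tested. In RefSeq promoter windows of GRCm38.p6, running from 250 bases before the transcription start to 50 after it, a CHR element, the motif through which MuvB complexes bind, was searched as TTTGAA or TTCGAA, and the CCAAT box, bound by the factor NF-Y, as CCAAT, on both strands. A window was found for 45 of the 54 members. A CHR motif was in 32 of these 45 windows (71.1%), a CCAAT box in 32 (71.1%) and both in 28 (62.2%). Over the first listed window of all 27025 genes the shares were 19.4%, 37.9% and 7.7%, and over 26 S phase genes they were 19.2%, 61.5% and 15.4%. The CHR and CCAAT letters do not overlap. A match is a description of these letters and not a binding site. The 150 bases before the start are shown, 5′ to 3′ on the gene's strand, for 4 tested members (Cdk1, Ccnb1, Plk1, Mybl2) and for Cdc20, which was too low for a test, with every searched motif in capitals; ATTGG is CCAAT on the other strand.
Cdk1, chr10:69352913-69353062, minus strand: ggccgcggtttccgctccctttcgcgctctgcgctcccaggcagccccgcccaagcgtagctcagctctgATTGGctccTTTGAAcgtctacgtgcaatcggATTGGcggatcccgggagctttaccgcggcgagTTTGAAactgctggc
Ccnb1, chr13:100786487-100786636, minus strand: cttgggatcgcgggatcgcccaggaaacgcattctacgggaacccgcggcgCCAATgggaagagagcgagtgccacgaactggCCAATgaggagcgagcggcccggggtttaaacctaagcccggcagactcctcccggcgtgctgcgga
Plk1, chr7:122159285-122159434, plus strand: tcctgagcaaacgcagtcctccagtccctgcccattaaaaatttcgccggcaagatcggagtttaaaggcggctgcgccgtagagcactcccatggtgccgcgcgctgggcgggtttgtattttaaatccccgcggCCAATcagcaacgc
Cdc20, chr4:118437344-118437493, minus strand: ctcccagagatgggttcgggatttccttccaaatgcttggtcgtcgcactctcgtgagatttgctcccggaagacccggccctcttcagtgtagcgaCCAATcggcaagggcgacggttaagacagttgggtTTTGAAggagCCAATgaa
Mybl2, chr2:163054485-163054634, plus strand: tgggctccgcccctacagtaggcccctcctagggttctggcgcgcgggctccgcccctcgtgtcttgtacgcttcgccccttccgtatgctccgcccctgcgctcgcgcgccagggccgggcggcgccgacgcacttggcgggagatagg
The Cdk1 stretch holds 2 CHR motifs, 71 and 15 bases before the start, and 2 CCAAT boxes, and the Cdc20 stretch holds 1 CHR motif 18 bases before the start between 2 CCAAT boxes. The Ccnb1 stretch holds 2 CCAAT boxes, 99 and 67 bases before the start. In Plk1 the CCAAT box lies 14 bases before the start, and its CHR motif lies 30 bases after the start, outside the stretch shown. The Mybl2 stretch holds none of the searched letters.

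Untreated libraries held 14594148 to 21160250 estimated counts and those of the drug experiment 12391077 to 16349676. Values are given as CPM, the count divided by the TMM-adjusted library total in the unit of edgeR, in the order A, B, C unless a mean ± SD is named. A gene was called changed, and rose or fell, when the adjusted p of the quasi-likelihood test of edgeR over all tested genes was under 0.05. In the authors' deposited table of the untreated experiment, the mean column headed VHL did not equal the mean of the 3 libraries labelled Vhl, so the direction of every untreated comparison rests on the library labels, which were used as given. Vhl itself had 87.3, 90.2 and 74.1 CPM in Vhl cells and 117, 121 and 125 CPM in control cells of the untreated experiment, where it was not called (log2 change -0.53, SE 0.16, adjusted p = 0.357). It had 90.04, 93.2 and 94.1 CPM in Vhl cells and 109, 107 and 102 CPM in control cells with DMSO, where it fell (log2 change -0.20, adjusted p = 0.00777). All 9 OPC markers passed the filter in both tables, and their summed level per library lay between 8063 and 13110 CPM over the 6 groups, against 0.319 to 1.97 CPM for 6 microglia markers. The common dispersion of edgeR, its measure of spread within groups, was 0.144 for the 6 untreated libraries and 0.0161 for the 12 libraries of the drug experiment.

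The filter of a mean of 1 CPM was passed by 52 members in the untreated table and by 51 in the drug table. Cdc20 and Cenpe missed it in both, and Ube2c in the drug table. Per kilobase of merged exons, mean levels in control cells with DMSO were highest for Top2a (115 CPM per kb), Mki67 (101 CPM per kb), Plk1 (86.5 CPM per kb) and Ccna2 (75.1 CPM per kb), and lowest for Cdc20 (0.278 CPM per kb) and Cenpe (0.0746 CPM per kb). No source used here states how transcripts were combined into genes, so whether each row holds every transcript of its gene is not known. The ranking is of deposited values, and a low row, such as that of Cdc20, need not mean low expression. Estimated counts of 18 members, among them Cdk1, Ccna2, Ccnb1, Foxm1, Pttg1 and Birc5, were whole numbers, within 0.001, in none of the 18 libraries. Parts of 4 members share more than 25% of their 31-base words with other annotated genes: Ccnb1 (27.8%), Cdc20 (26.7%), Kif20a (26.7%) and Ube2c (25.3%). The genes that share most with them were themselves low, at 0 to 0.15 CPM for Ccnb1-ps, 0 to 0.203 CPM for Gm7856 and 0 to 0.473 CPM for Tnnc2, which share sequence with Ccnb1, Cdc20 and Ube2c in that order. Cdc23, which shares 26.7% of the words of Kif20a, had 67.6 to 128 CPM, so the split of reads between Kif20a and Cdc23 is uncertain.

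**Figure D1:**
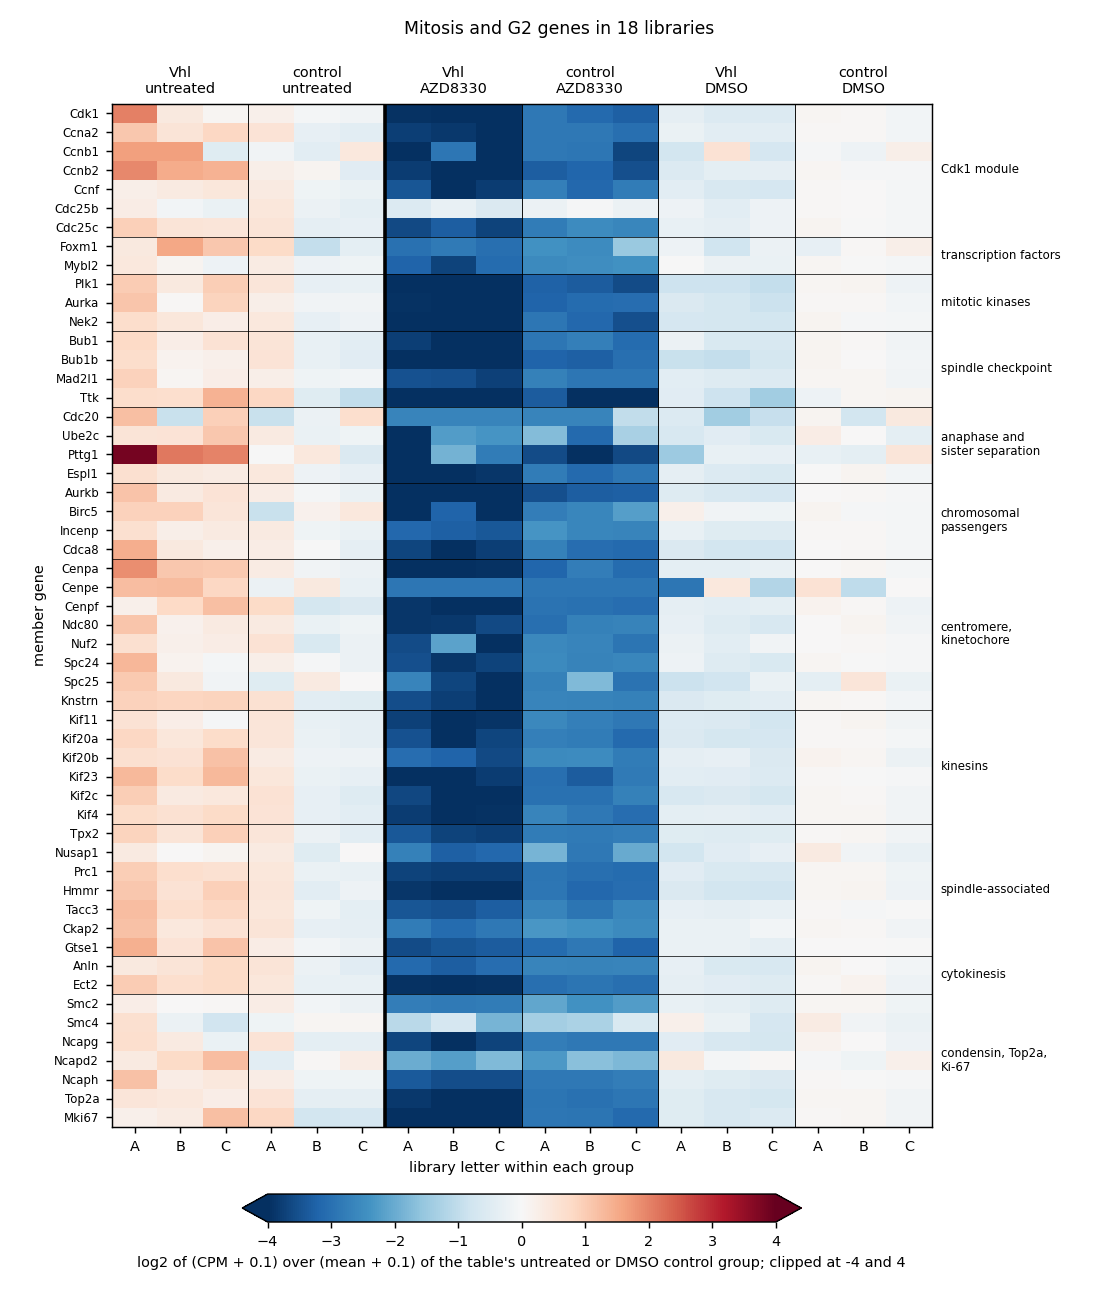
Level of each of the 54 members (rows, sorted by role) in each of the 18 libraries (columns, letters A to C within 6 groups), as log2 of CPM + 0.1 over the mean + 0.1 of the control group of the same table (untreated control or DMSO control), with red above and blue below that mean and colours clipped at -4 and 4. Nearly all members are blue in both AZD8330 groups, deeper in Vhl cells, pale blue in Vhl cells with DMSO, and red in untreated Vhl cells, while untreated control library A is redder than B and C.

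In the untreated experiment, the comparison asked what the Vhl edit did to these genes in OPCs under ordinary growth conditions. The estimated change was above 0 for 50 of 52 tested members, with a median log2 change of 0.71 against 0.05 over all genes, yet none of the 52 was called. Over all 13569 genes, edgeR called 2 higher in Vhl cells, a background of 0.0147%. At an unadjusted p under 0.05, 21 members were higher and 0 lower, while 1267 of all 13569 genes passed it in either direction. DESeq2 called 5 members higher and limma on log2(CPM + 1) called 0. In these bulk samples a change in the share of dividing cells cannot be told apart from a change in transcript per cell. All 3 Vhl libraries exceeded all 3 control libraries for 18 of 52 members, against 7.92% of all genes, and no member had its groups apart the other way. Control library A stood above control libraries B and C for 46 of 52 members. Controls B and C both lay below all 3 Vhl libraries for 46 members. Neither order was counted over all genes, so these counts cannot be read as particular to the members. Summed over the 54 members, Vhl libraries A, B and C held 3987, 3294 and 3976 CPM, and control libraries 3554, 1922 and 1876 CPM. Without Vhl A, edgeR called 1 member higher, and without both A libraries it called 10, which included Top2a, Ccna2, Cenpa, Cenpf and Ect2. The shares of all genes called by DESeq2 and with these libraries left out are not given here.

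Genes of the Cdk1 module leaned upward in untreated Vhl cells. Cdk1, the kinase that drives entry into mitosis, had 74.9, 23.8 and 19.3 CPM in Vhl cells and 21.1, 17.4 and 16.4 CPM in control cells. Library A of the Vhl group was far above the rest, and library C of that group fell below control A, so the groups overlapped (log2 change 1.11, SE 0.51, adjusted p = 0.572). Ccna2, the S and G2 phase cyclin, had 155, 105 and 128 CPM in Vhl cells and 105, 58.3 and 54.4 CPM in control cells, with control A just above Vhl B. The mitotic cyclin Ccnb1 was near the floor of the table, at 5.66, 5.66 and 1.21 CPM in Vhl cells and 1.58, 1.27 and 2.35 CPM in control cells, with 1 Vhl library below all controls. Its relative Ccnb2 had 26.8, 19.6 and 18.5 CPM in Vhl cells and 8.25, 7.57 and 5.09 CPM in control cells, groups that did not overlap, with a log2 change of 1.63 (SE 0.29, adjusted p = 0.137). Cdc25b, a phosphatase that activates Cdk1, had 64.03, 48.6 and 43.3 CPM in Vhl cells and 71.9, 44.4 and 39.8 CPM in control cells with an estimate near 0 (log2 change -0.0011, SE 0.28). Of the transcription factors, Foxm1 had 4.54, 10.3 and 7.31 CPM in Vhl cells and 5.95, 1.71 and 2.61 CPM in control cells. Mybl2 had 26.2, 20.97 and 16.9 CPM in Vhl cells and 24.3, 16.7 and 17.2 CPM in control cells. Both pairs of groups overlapped.

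Kinase and checkpoint genes had overlapping groups. Median log2 changes were 0.75 for 3 mitotic kinases and 0.52 for 4 checkpoint genes, against 0.71 for all tested members. Plk1, the polo-like kinase of mitotic entry, had 70.01, 45.3 and 68.1 CPM in Vhl cells and 47.9, 27.3 and 27.7 CPM in control cells. Aurka, the centrosomal Aurora kinase, had 38.8, 18.7 and 33.4 CPM in Vhl cells and 21.2, 16.5 and 16.6 CPM in control cells. In both genes only control A reached into the Vhl range. Bub1, a kinase of the spindle checkpoint, had 43.03, 29.7 and 36.6 CPM in Vhl cells and 35.2, 20.2 and 18.6 CPM in control cells. Mad2l1, the checkpoint protein that sequesters Cdc20, had 56.6, 31.5 and 35.5 CPM in Vhl cells and 35.1, 26.5 and 27.1 CPM in control cells. Control A again lay above the lowest Vhl library in each. Cdc20, the activator of the anaphase-promoting complex, was measured at 0.325, 0 and 0.254 CPM in Vhl cells and 0, 0.0553 and 0.196 CPM in control cells, too low for a test. Ube2c, the ubiquitin-conjugating enzyme of that complex, had 1.11, 1.14 and 1.72 CPM in Vhl cells and 1.004, 0.608 and 0.652 CPM in control cells. Pttg1, the securin that restrains separase, had 11.5, 3.43 and 3.18 CPM in Vhl cells and 0.717, 0.995 and 0.457 CPM in control cells. Its groups were far apart, and its log2 change of 3.05 (SE 0.66) was the largest of the 52. Pttg1 was not called by edgeR (adjusted p = 0.214) but was called by DESeq2 (adjusted p = 0.00113). Control means were 0.755 CPM for Ube2c and 0.723 CPM for Pttg1, under the filter of 1 CPM. Both genes passed that filter only through their higher Vhl libraries. Both are counted in the 18 members with groups apart and in the 50 estimates above 0.

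Centromere, motor and spindle genes gave most of the separated groups. Aurkb, the kinase of the chromosomal passenger complex, had 45.3, 26.2 and 30.1 CPM in Vhl cells and 25.4, 19.3 and 17.1 CPM in control cells. Its partner Birc5, survivin, had 7.05, 7.06 and 5.21 CPM in Vhl cells and 1.94, 4.201 and 4.96 CPM in control cells. Cenpa, the histone H3 variant of centromeres, had 73.5, 43.2 and 42.5 CPM in Vhl cells and 25.5, 18.4 and 17.2 CPM in control cells (log2 change 1.38, SE 0.29, adjusted p = 0.208). The groups of these 3 genes did not overlap. Cenpf, a large kinetochore protein, had 152, 230.1 and 303 CPM in Vhl cells and 225, 81.4 and 89.3 CPM in control cells. Ndc80, which binds microtubules at the kinetochore, had 41.03, 21.4 and 24.4 CPM in Vhl cells and 24.5, 15.8 and 16.8 CPM in control cells. For both, control A overlapped the Vhl group. Among kinesins, Kif11, which pushes spindle poles apart, had 121, 96.04 and 77.3 CPM in Vhl cells and 113, 64.7 and 62.4 CPM in control cells. Kif20a, a motor of the central spindle, had 80.5, 62.4 and 74.9 CPM in Vhl cells and 62.8, 37.6 and 35.6 CPM in control cells. Control A exceeded at least 1 Vhl library in both. Tpx2, which activates Aurora A on the spindle, had 168, 129 and 176 CPM in Vhl cells and 127, 76.8 and 68.3 CPM in control cells. Hmmr, a spindle pole protein also known as a hyaluronan receptor, had 61.6, 43.5 and 56.1 CPM in Vhl cells and 40.2, 21.3 and 25.3 CPM in control cells. Neither gene's groups overlapped.

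Cytokinesis and chromosome genes were mixed. Anln, the cleavage furrow scaffold, had 58.8, 63.9 and 76.5 CPM in Vhl cells and 63.9, 38.3 and 32.9 CPM in control cells, an overlapping pair. Ect2, which activates RhoA at the furrow, had 59.4, 47.5 and 50.6 CPM in Vhl cells and 40.4, 24.3 and 24.1 CPM in control cells, without overlap. The condensin subunit Smc2 had 128, 107 and 108 CPM in Vhl cells and 128, 97.6 and 89.98 CPM in control cells. Another condensin subunit, Ncapd2, had 15.95, 21.04 and 29.3 CPM in Vhl cells and 9.32, 12.7 and 15.2 CPM in control cells. Smc2 overlapped and Ncapd2 did not. Top2a, the topoisomerase that untangles sister chromatids, had 473, 451 and 409 CPM in Vhl cells and 490.1, 261 and 260.2 CPM in control cells. Mki67, which encodes the proliferation marker Ki-67, had 506, 556 and 1018 CPM in Vhl cells and 782, 264 and 275 CPM in control cells (log2 change 0.66, SE 0.49, adjusted p = 0.752). Control A was as high as, or higher than, most Vhl libraries for both, and controls B and C were at the bottom.

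With DMSO, the Vhl edit went with lower levels of most members. The labels do not tell whether the edited cells of both experiments carried the same edit. Of 51 tested, 40 fell in Vhl cells (78.4%), against a background of 18.5% of all genes called lower, and 0 rose, against 13.8% called higher. At an unadjusted p under 0.05, 40 members were lower and 0 higher, while 5597 of all 13460 genes passed it in either direction. DESeq2 also called 40 lower and 0 higher, and limma on log2(CPM + 1) called 39 lower and 0 higher. The median log2 change was -0.49, against -0.03 over all genes, and the called changes were small, from -0.21 in Ckap2, a spindle protein, to -0.87 in Plk1. All 3 Vhl libraries lay below all 3 control libraries for 42 of 51 members, against 25.3% of all genes. The 11 members not called were Ccnb1, Foxm1, Mybl2, Ttk, Pttg1, Birc5, Nuf2, Spc25, Nusap1, Smc4 and Ncapd2. Their standard errors ran from 0.10 to 0.57. Among the 29 members whose deposited values were whole in at least 9 libraries, a subset chosen after seeing the data, 28 of 29 fell.

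Mitotic kinases and checkpoint kinases had the largest falls. Plk1 had 108, 106 and 98.4 CPM in Vhl cells and 202, 205 and 164 CPM in control cells, 1.83-fold lower (log2 change -0.87, SE 0.08, adjusted p = 7.02e-06). Bub1b, the BubR1 checkpoint protein, had 95.3, 90.3 and 107 CPM in Vhl cells and 188, 175 and 162 CPM in control cells (log2 change -0.84, SE 0.08, adjusted p = 5.73e-06). Aurka had 62.7, 57.6 and 51.6 CPM in Vhl cells and 97.3, 97.2 and 86.8 CPM in control cells (log2 change -0.71). The groups of each stood clearly apart. Hmmr followed with 81.1, 72.7 and 70.9 CPM in Vhl cells and 129.9, 131 and 105 CPM in control cells (log2 change -0.70). Nek2, a centrosome kinase, had 48.4, 46.7 and 46.1 CPM in Vhl cells and 82.3, 74.2 and 73.3 CPM in control cells (log2 change -0.70). These 5 were the members with the largest falls among those called. Bub1 had 80.5, 62.2 and 61.3 CPM in Vhl cells and 102, 98.5 and 86.2 CPM in control cells. Mad2l1 had 106, 97.4 and 96.7 CPM in Vhl cells and 148, 148 and 127 CPM in control cells. Both fell by 0.49 on the log2 scale, without overlap.

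Within the Cdk1 module, 6 of 7 members fell. Cdk1 had 148, 129.8 and 131 CPM in Vhl cells and 202, 195 and 175 CPM in control cells (log2 change -0.48, SE 0.10, adjusted p = 0.00212). Ccna2 had 256, 230.1 and 229.6 CPM in Vhl cells and 319.9, 319 and 282 CPM in control cells (log2 change -0.36). In Cdk1 and Ccna2 every Vhl library was below every control library. Cdc25b had 60.4, 52.3 and 61.3 CPM in Vhl cells and 72.5, 70.9 and 67.1 CPM in control cells, and its call (log2 change -0.28, adjusted p = 0.0293) was lost on leaving out Vhl B or control A or B with DMSO, or Vhl A or C or control B or C with AZD8330, with adjusted p between 0.0533 and 0.118. Ccnb1 had 5.11, 12.8 and 5.29 CPM in Vhl cells and 8.14, 7.37 and 9.95 CPM in control cells, with its highest and lowest values both in the Vhl group (adjusted p = 0.877). Neither transcription factor was called. Foxm1 had 6.31, 4.098 and 6.13 CPM in Vhl cells and 5.66, 7.51 and 8.44 CPM in control cells (log2 change -0.39, SE 0.29). Mybl2 had 67.4, 58.1 and 56.2 CPM in Vhl cells and 70.9, 67.6 and 64.4 CPM in control cells (log2 change -0.16, SE 0.10).

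Most of the chromosome and spindle machinery fell by similar amounts with DMSO. Aurkb had 83.3, 76.3 and 75.9 CPM in Vhl cells and 120.5, 123 and 116 CPM in control cells (1.53-fold lower). Cenpa had 85.8, 86.4 and 91.4 CPM in Vhl cells and 114, 119 and 108 CPM in control cells (1.29-fold lower). Cenpf had 196, 187 and 194 CPM in Vhl cells and 279, 260.1 and 217 CPM in control cells (1.31-fold lower). None of these pairs of groups overlapped. Ndc80 had 58.99, 51.5 and 47.5 CPM in Vhl cells and 75.5, 79.5 and 66.8 CPM in control cells. Kif11 had 156, 151 and 137 CPM in Vhl cells and 230.3, 242 and 204 CPM in control cells. Kif20a had 123, 113 and 115 CPM in Vhl cells and 191, 192 and 174 CPM in control cells. All 6 tested kinesins fell, by 0.39 to 0.66 on the log2 scale. Tpx2 had 234, 232 and 236 CPM in Vhl cells and 346, 347 and 300.2 CPM in control cells, the Vhl values lying almost on top of each other. Anln had 104, 87.6 and 84.2 CPM in Vhl cells and 142, 133 and 122 CPM in control cells. Ect2 had 101, 95.4 and 90.98 CPM in Vhl cells and 135, 145 and 114 CPM in control cells. Both cytokinesis genes fell without overlap. Smc2 had 206, 190.4 and 174 CPM in Vhl cells and 266, 265 and 224 CPM in control cells. Top2a had 746, 659 and 629.9 CPM in Vhl cells and 1082, 1084 and 934 CPM in control cells. Mki67 had 727, 653 and 688 CPM in Vhl cells and 1054, 1064 and 918 CPM in control cells (log2 change -0.55, SE 0.07, adjusted p = 5.92e-05). These 3 chromosome genes fell with every Vhl library below every control library.

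Several members were not called or not tested. Birc5 had 15.7, 12.4 and 12.1 CPM in Vhl cells and 14.6, 13.3 and 12.9 CPM in control cells (log2 change -0.02, SE 0.25). Ncapd2 had 19.95, 14.2 and 15.7 CPM in Vhl cells and 14.6, 13.5 and 17.3 CPM in control cells, the single member with an estimate above 0 (log2 change 0.13, SE 0.19, adjusted p = 0.644). Pttg1 had 6.47, 14.6 and 14.3 CPM in Vhl cells and 14.7, 13.7 and 25.4 CPM in control cells. The groups of all 3 overlapped. Untested for low counts were Ube2c, with 1.197, 1.37 and 1.21 CPM in Vhl cells and 2.35, 1.94 and 1.43 CPM in control cells, and Cdc20, with 0.319, 0.137 and 0.227 CPM in Vhl cells and 0.573, 0.268 and 0.716 CPM in control cells.

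**Figure D2:**
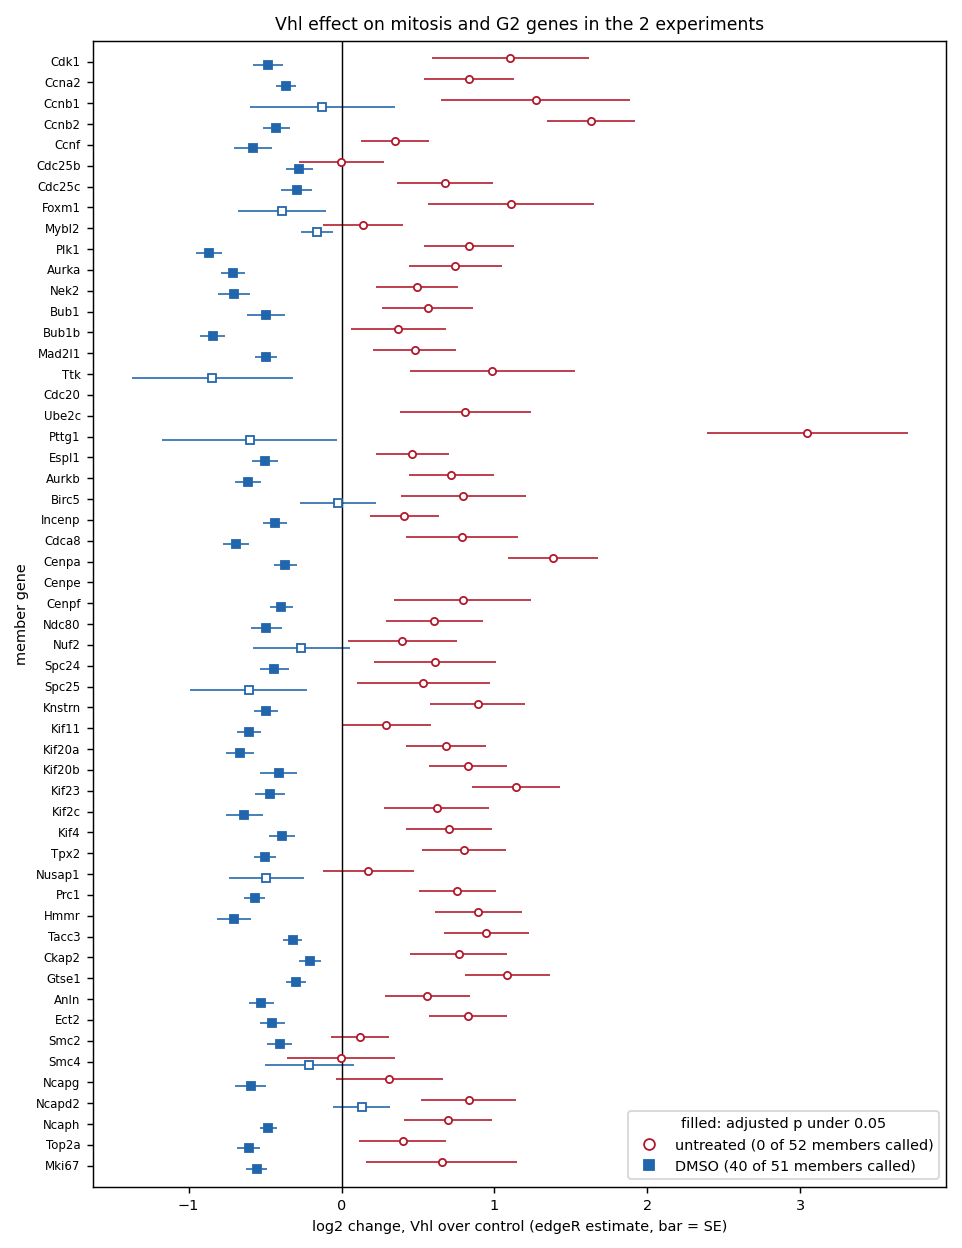
Estimated log2 change of Vhl over control for each member (rows, by role) in the untreated experiment (red circles) and with DMSO (blue squares), with bars for the SE and filled symbols for an adjusted p under 0.05. Untreated estimates lie above 0 for 50 of 52 members, with wide bars and none filled; DMSO estimates lie below 0 for 50 of 51 and 40 are filled.

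Estimates of the Vhl effect were above 0 in the untreated experiment and below 0 with DMSO for 48 of the 51 members tested in both tables, the exceptions being Cdc25b, Smc4 and Ncapd2. To test the difference itself, all 18 libraries were joined and fitted with voom of limma, with 1 weight per experiment because of the unequal spread (mean weight 0.193 for untreated libraries and 2.27 for the drug experiment). The opposite signs and this test rest on the same libraries, so the test is not independent of that pattern. The Vhl effect was higher untreated than with DMSO for 13 of 51 members (25.5%), against 0.348% of 12914 genes. It was lower for 0 members, against 101 of the 12914 genes. At an unadjusted p under 0.05, 38 members were higher and 0 lower, while 1249 of the 12914 genes passed it in either direction. On the joined table, edgeR called 26 members higher and 0 lower. Its share of all genes is not given here, so this count has no background to be read against. The median difference was 1.26 on the log2 scale. The 13 were Ccna2, Ccnb2, Plk1, Cenpa, Knstrn, Kif20a, Kif23, Tpx2, Prc1, Hmmr, Tacc3, Gtse1 and Ncaph. Ccnb2 differed by 2.09 (SE 0.42, adjusted p = 0.0248) and Cenpa by 1.77 (SE 0.32, adjusted p = 0.0143). Plk1 differed by 1.75 (SE 0.36, adjusted p = 0.0284), Hmmr by 1.67 (adjusted p = 0.049) and Kif23, a motor of the central spindle, by 1.66 (adjusted p = 0.0235). For Mki67 the difference of 1.33 had an adjusted p of 0.127, and for Cdk1 the difference of 1.42 one of 0.339.

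This difference depended on single libraries. Without untreated control B, 0 members were called, and without untreated control C also 0. Without untreated Vhl A the count was 26, without untreated Vhl C it was 7, and without both untreated A libraries it was 35. The shares of all genes called with these libraries left out are not given here. These counts therefore cannot be read as particular to the members. Of the members named above, Cenpa, Plk1, Kif23, Ccnb2 and Hmmr each lost their call without untreated control B or C (adjusted p between 0.184 and 0.507). Plk1 also lost it without untreated Vhl C (adjusted p = 0.0575), and Ccnb2 without untreated control A (0.0919) or Vhl B (0.0524). Hmmr lost it on leaving out 13 of the 18 libraries, in each case with an adjusted p of at least 0.0547. The difference for Mki67 passed the threshold without untreated control A (adjusted p = 0.0151) or Vhl A (0.0247). The solvent differed between the experiments together with any condition that is not recorded. An effect of DMSO therefore cannot be told apart from an effect of the experiment. Levels also differed between the experiments, although each table was scaled on its own. All 3 control libraries with DMSO exceeded all 3 untreated control libraries for 49 of 54 members, and over 51 members the median ratio of control means was 3.88, with 10.4 for Cdk1 (190.3 CPM with DMSO, 18.3 CPM untreated) and 2.30 for Mki67 (1012 and 440.3 CPM). The same count was not made over all genes, so it cannot be read as particular to the members. Neuron markers summed to 1893 to 4207 CPM in Vhl cells and 2574 to 3237 CPM in control cells untreated, and to 1475 to 1612 CPM in Vhl cells and 1007 to 1059 CPM in control cells with DMSO, and the Vhl effect was lower untreated than with DMSO for 2 of 6 of them. It was also lower for 1 of 7 astrocyte and 1 of 6 neural progenitor markers, and for 0 of 9 OPC and 0 of 6 oligodendrocyte markers. Over all genes it was called lower for 101 of 12914. Oligodendrocyte markers summed to 365 to 640 CPM in Vhl cells and 517 to 1012 CPM in control cells untreated, and to 164 to 182 CPM in Vhl cells and 144 to 149 CPM in control cells with DMSO, and astrocyte markers to 613 to 994 CPM in Vhl cells and 1034 to 1281 CPM in control cells untreated, and to 1015 to 1091 CPM in Vhl cells and 911 to 924 CPM in control cells with DMSO. The sums do not stand for every marker. With DMSO, 1 of 7 astrocyte markers rose and 3 fell in Vhl cells, against 13.8% and 18.5% of all genes. Of 6 tested oligodendrocyte markers 1 rose and 1 fell. The part of all these markers in the result was not tested.

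**Figure D3:**
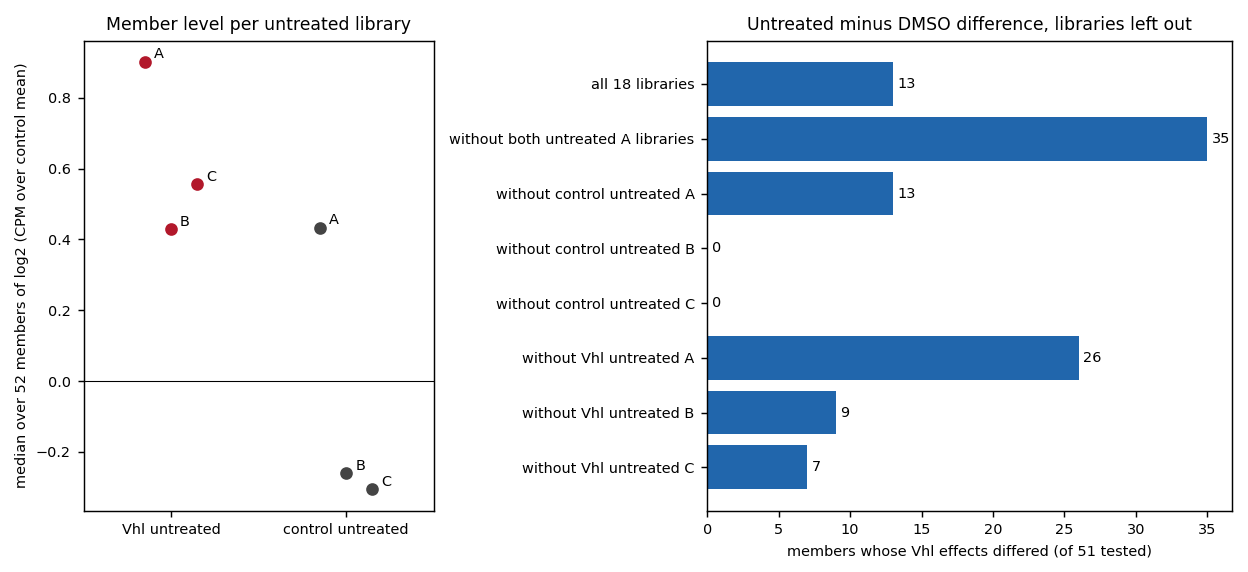
Left, the median over 52 members of log2 CPM over the untreated control mean in each untreated library, Vhl left and control right; control A lies at 0.43, level with Vhl B, while controls B and C lie at -0.26 and -0.31. Right, bars count the members whose Vhl effect was called higher untreated than with DMSO with all 18 libraries (13) and with untreated libraries left out, from 0 without control B or C to 35 without both A libraries.

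AZD8330 lowered almost the whole set in both genotypes, the comparison that asks what MEK activity does for these genes in OPCs. In Vhl cells 50 of 51 tested members fell (98.0%), against 25.6% of all genes, and 0 rose, against 25.8%. In control cells 50 of 51 fell, against 31.7% of all genes, and 0 rose, against 29.1%. No member was higher at an unadjusted p under 0.05 in either genotype, and DESeq2 and limma on log2(CPM + 1) each also called 50 lower and 0 higher in each. Median log2 changes were -3.27 in Vhl cells and -2.87 in control cells, against 0.03 and -0.01 over all genes. All 3 AZD8330 libraries lay below all 3 DMSO libraries for 49 of 51 members in Vhl cells (28.4% of all genes) and for 50 of 51 in control cells (34.1% of all genes). Summed over the 54 members, Vhl libraries held 624 to 694 CPM with AZD8330 and 5503 to 6005 CPM with DMSO, and control libraries 1148 to 1219 CPM with AZD8330 and 7423 to 8468 CPM with DMSO.

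Ttk, a checkpoint kinase, had the largest estimated fall in both genotypes, at 0, 0.393 and 0.146 CPM with AZD8330 against 9.66, 7.38 and 4.92 CPM with DMSO in Vhl cells, and 1.21, 0.458 and 0 CPM against 11.5, 13.7 and 14.2 CPM in control cells. Its levels with AZD8330 were near 0, so the size of the fall is poorly known (log2 change -5.25, SE 0.78, in Vhl cells and -4.51, SE 0.66, in control cells). Plk1 had 8.23, 7.34 and 7.88 CPM with AZD8330 in Vhl cells, 13.3-fold lower than with DMSO, and 20.01, 18.8 and 15.96 CPM in control cells, 10.4-fold lower. Aurkb had 6.78, 4.46 and 5.91 CPM in Vhl cells (13.8-fold lower) and 10.5, 12.2 and 12.5 CPM in control cells (10.2-fold lower). For these kinases no library with AZD8330 came near a library with DMSO. Ccnb2 averaged 4.71 ± 0.772 CPM with AZD8330 and 58.1 ± 3.802 CPM with DMSO in Vhl cells, and 7.73 ± 0.957 CPM with AZD8330 and 78.1 ± 3.98 CPM with DMSO in control cells (SD, n = 3 each), 10.1-fold lower in control cells. Ccnb1 had 0.0691, 1.05 and 0.292 CPM with AZD8330 in Vhl cells (15.97-fold lower) and 1.08, 1.05 and 0.575 CPM in control cells. Pttg1 had 0.207, 4.72 and 2.48 CPM with AZD8330 in Vhl cells (4.74-fold lower) and 1.398, 0.392 and 1.37 CPM in control cells (16.97-fold lower). The Pttg1 libraries varied widely, with 0.207 in Vhl A and 4.72 in Vhl B.

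Members of the other roles fell alongside. With AZD8330, Cdk1 had 12.3, 11.3 and 8.47 CPM in Vhl cells and 26.1, 21.8 and 19.6 CPM in control cells, log2 changes of -3.67 and -3.08 against DMSO. Ccna2 had 22.3, 20.98 and 19.3 CPM in Vhl cells and 42.1, 42.2 and 37.6 CPM in control cells (log2 changes -3.51 and -2.91). Foxm1 had 0.8296, 0.918 and 0.803 CPM in Vhl cells and 1.27, 1.18 and 2.52 CPM in control cells (log2 changes -2.68 and -2.12). Both transcription factors were called, and Mybl2 had 7.19, 5.05 and 7.95 CPM in Vhl cells and 11.6, 12.1 and 12.7 CPM in control cells (log2 changes -3.17 and -2.48). Aurka had 5.95, 5.05 and 5.33 CPM in Vhl cells and 10.04, 10.9 and 11.2 CPM in control cells. Bub1 had 6.91, 5.25 and 4.38 CPM in Vhl cells and 12.7, 14.3 and 11.1 CPM in control cells. The checkpoint genes fell as a body, and Mad2l1 had 12.4, 12.3 and 10.6 CPM in Vhl cells and 21.5, 18.7 and 18.98 CPM in control cells. Birc5 had 0.622, 1.38 and 0.438 CPM in Vhl cells and 1.91, 2.16 and 2.88 CPM in control cells (log2 changes -4.01 and -2.56). Cenpa had 6.84, 6.36 and 7.22 CPM in Vhl cells and 12.6, 16.7 and 13.4 CPM in control cells. In Cenpa, as in Birc5, every Vhl library was below every control library.

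Under AZD8330, 5 of 7 tested centromere and kinetochore genes, all 6 tested kinesins and 5 of 7 condensin and chromosome genes were called lower in Vhl than in control cells. Cenpf had 17.1, 14.7 and 14.2 CPM with AZD8330 in Vhl cells and 32.3, 31.6 and 30.2 CPM in control cells. Ndc80 had 4.91, 5.05 and 5.91 CPM in Vhl cells and 9.15, 11.2 and 11.4 CPM in control cells. Kif11 had 17.01, 14.2 and 14.7 CPM in Vhl cells and 37.4, 33.9 and 30.8 CPM in control cells. For all 3 the Vhl group lay wholly under the control group. Kif20a had 16.5, 11.5 and 14.5 CPM in Vhl cells and 27.95, 26.7 and 21.3 CPM in control cells. Tpx2 had 31.7, 25.5 and 24.3 CPM in Vhl cells and 47.6, 46.4 and 49.1 CPM in control cells. Hmmr had 8.16, 5.11 and 6.57 CPM in Vhl cells and 16.5, 13.7 and 14.7 CPM in control cells. These spindle genes did not overlap either. Anln had 15.1, 13.4 and 15.98 CPM in Vhl cells and 21.3, 20.8 and 20.99 CPM in control cells. Ect2 had 8.37, 6.82 and 8.39 CPM in Vhl cells and 16.1, 17.1 and 16.03 CPM in control cells. Smc2 had 37.3, 35.3 and 36.1 CPM in Vhl cells and 58.95, 47.3 and 52.9 CPM in control cells. Smc2 fell less than most, by 2.39 on the log2 scale in Vhl cells and by 2.25 in control cells. Top2a had 70.4, 58.6 and 61.1 CPM in Vhl cells and 138, 129.7 and 139 CPM in control cells (10.7-fold and 7.62-fold lower than with DMSO). Mki67 had 59.8, 51.5 and 57.9 CPM in Vhl cells and 137, 132 and 117 CPM in control cells (12.2-fold and 7.86-fold lower than with DMSO).

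Cdc25b was the single tested member not called in either genotype. It had 47.8, 57.6 and 46.9 CPM with AZD8330 against 60.4, 52.3 and 61.3 CPM with DMSO in Vhl cells (log2 change -0.19, SE 0.09, adjusted p = 0.0958), and 59.1, 67.8 and 59.1 CPM against 72.5, 70.9 and 67.1 CPM in control cells (log2 change -0.18, SE 0.09, adjusted p = 0.0953). The change in Vhl cells passed the threshold on leaving out Vhl B with AZD8330 (adjusted p = 0.00604), Vhl B with DMSO (0.0359) or control B with AZD8330 (0.0377). With no filter on low counts the change was called in both genotypes (adjusted p = 0.0451 in Vhl cells and 0.0234 in control cells). Its relative Cdc25c did fall, by 3.27 on the log2 scale in Vhl cells and by 2.65 in control cells. The condensin subunit Smc4 was called with the next smallest changes, -0.91 in Vhl cells and -1.05 in control cells, and Ncapd2, with 3.73, 3.21 and 4.38 CPM in Vhl cells and 2.99, 4.71 and 4.24 CPM in control cells, changed by -2.14 and -1.93. Of the untested members, Ube2c had 0, 0.328 and 0.292 CPM in Vhl cells and 0.508, 0.131 and 0.719 CPM in control cells. Cdc20 was at 0 in all 3 Vhl libraries, where a count of 0 allows up to 0.197 to 0.222 CPM by counting error alone, and had 0, 0 and 0.216 CPM in control cells.

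**Figure D4:**
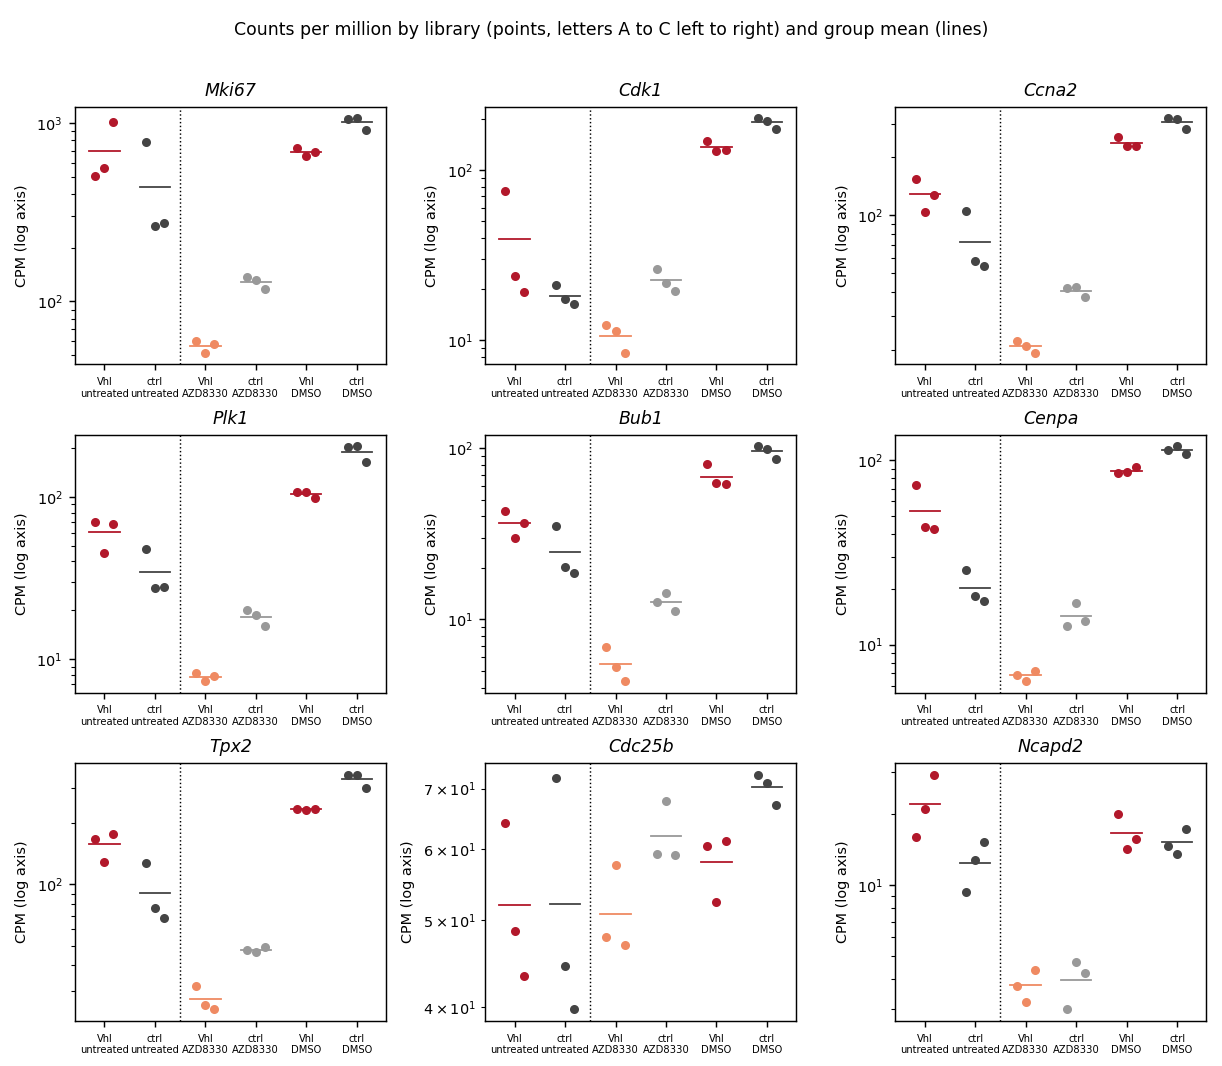
CPM on log axes for 9 members in every library (points, letters A to C from left to right) and group mean (lines), with the untreated table left of the dotted line, Vhl groups in red or orange and control groups in grey or black. Within the drug experiment, 7 of the 9 panels have Vhl libraries with AZD8330 lowest and control libraries with DMSO highest, while Cdc25b stays between 39.8 and 72.5 CPM in all libraries and the genotypes overlap for Ncapd2.

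Under AZD8330 the members were lower still in Vhl than in control cells. Of 51 tested, 43 fell (84.3%), against 14.0% of all genes, and 0 rose, against 16.0%. At an unadjusted p under 0.05, 45 were lower and 0 higher, while 5250 of all 13460 genes passed it in either direction. DESeq2 called 43 lower and 0 higher, and limma on log2(CPM + 1) called 42 lower and 0 higher. The median log2 change was -0.96, against 0.01 over all genes, and the groups were apart with Vhl lower for 43 of 51, against 20.7% of all genes. The largest falls were in Birc5 (-1.48, SE 0.33, adjusted p = 0.0042), Bub1b (-1.31, SE 0.12, adjusted p = 2.79e-06), Plk1 (-1.23, adjusted p = 9.43e-06), Kif2c, a microtubule depolymerase (-1.22, adjusted p = 0.000136), and Bub1 (-1.21, adjusted p = 0.000203). Mki67 averaged 56.4 ± 4.32 CPM in Vhl cells and 129 ± 10.6 CPM in control cells (SD, n = 3 each), 2.29-fold lower. Not called were Ccnb1, Foxm1, Ttk, Pttg1, Nuf2, Spc25, Smc4 and Ncapd2. Without Vhl A with AZD8330, Pttg1 was called higher (adjusted p = 0.0333), without Vhl B Ccnb1 was called lower (0.0316), and without control A or B Foxm1 was called lower (0.0491 and 0.0324). The call of Cdc25b (log2 change -0.29, adjusted p = 0.0269) was lost without control B, Vhl A or Vhl C with AZD8330, with adjusted p between 0.0528 and 0.0674.

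Whether AZD8330 acted differently by genotype was asked with the interaction term. The drug effect was more negative in Vhl than in control cells for 16 of 51 members (31.4%), against 4.96% of all genes, and less negative for 0, against 7.81%. At an unadjusted p under 0.05 the counts were 28 and 0, while 3450 of all 13460 genes passed it in either direction. DESeq2 called 23 and 0, and limma on log2(CPM + 1) called 12 and 0. The median difference was -0.43, against 0.03 over all genes. The 5 with the largest differences were Birc5 (-1.46, SE 0.41, adjusted p = 0.0366), the chromosome motor Kif4 (-0.74, SE 0.15, adjusted p = 0.00538), Cenpa (-0.70, adjusted p = 0.00485), Mybl2 (-0.69, adjusted p = 0.0209) and Cenpf (-0.64, adjusted p = 0.00691). Of the fixed set, Mki67 (-0.64, adjusted p = 0.00203), Ccna2 (-0.60, adjusted p = 0.00259), Top2a (-0.49, adjusted p = 0.0139), Kif11 (-0.55, adjusted p = 0.0153), Ect2 (-0.61, adjusted p = 0.0154) and Cdk1 (-0.59, adjusted p = 0.0403) were also called. The remaining 5 were Cdc25c, Espl1, Spc24, Knstrn and Tacc3. The call of Birc5 was lost on leaving out 10 of the 12 libraries in turn (adjusted p up to 0.0773), all except control A and Vhl B with AZD8330, and that of Cdk1 on leaving out 7 of the 12 (adjusted p up to 0.101). The libraries on which the call of Cdk1 depended were control A and Vhl C with AZD8330, and control B and C and all 3 Vhl libraries with DMSO. None of the 3 mitotic kinases Plk1, Aurka and Nek2 was called, though Plk1 (-0.36, SE 0.15, adjusted p = 0.16) passed the threshold without control C with AZD8330 (adjusted p = 0.0469). Anln showed an estimate near 0 (0.02, SE 0.13).

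**Figure D5:**
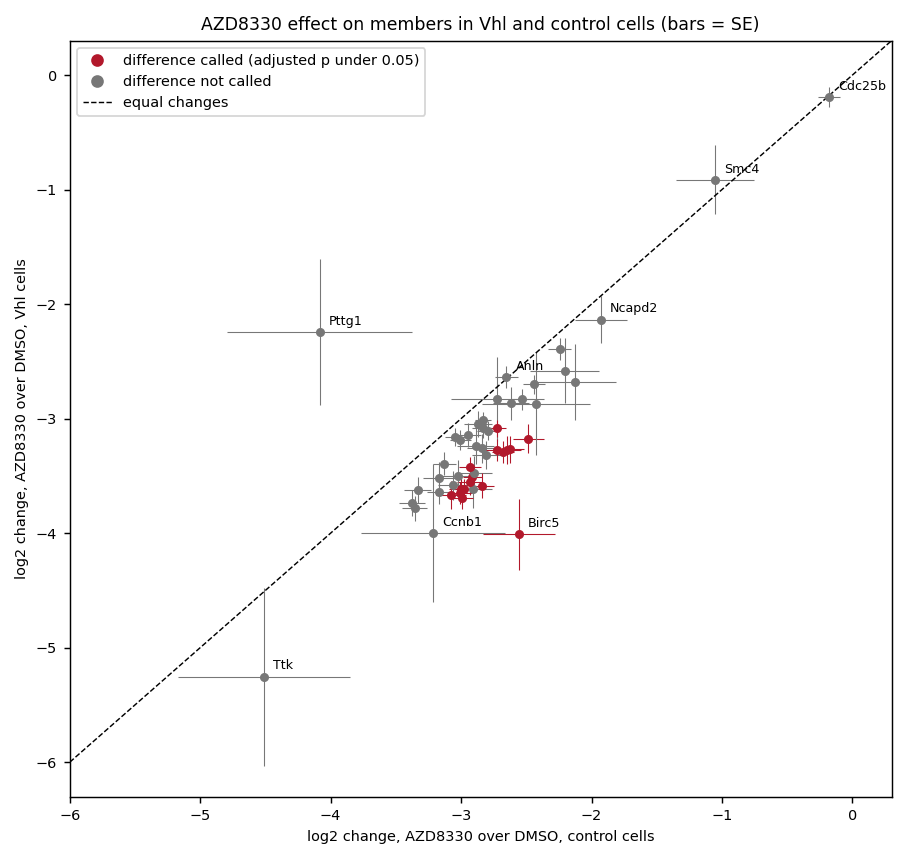
Log2 change with AZD8330 over DMSO for 51 tested members in Vhl cells (vertical axis) and in control cells (horizontal axis), with bars for the SE, a dashed line of equal changes and red points for the 16 members whose difference was called. Most points lie below the dashed line, Cdc25b and Smc4 lie near the top right, and Pttg1 lies above the line with wide bars.

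Genes of related function were described from 6 further lists. Their counts can be read against the shares of all tested genes, which with DMSO in Vhl cells were 13.8% called higher and 18.5% lower. With AZD8330 against DMSO these shares were 25.8% higher and 25.6% lower in Vhl cells, and 29.1% higher and 31.7% lower in control cells. They were 16.0% higher and 14.0% lower for Vhl over control under AZD8330, and 7.81% and 4.96% for positive and negative interactions. Of 58 other mitosis genes, 55 were tested in each table. In untreated Vhl cells 0 were called, with a median log2 change of 0.65. With DMSO 28 fell and 0 rose in Vhl cells, among them Lmnb1, a nuclear lamin (-0.51), Hmgb2, a chromatin protein (-0.43), Ckap2l, a spindle protein (-0.46), and the mitotic kinase Pbk (-0.43). AZD8330 lowered 54 of 55 in Vhl cells and 53 of 55 in control cells, with Pbk changed by -3.73 and -2.83. Under AZD8330, 33 fell and 1 rose in Vhl against control cells. In the interaction 6 of 55 had the more negative drug effect in Vhl cells and 2 the less negative, with a median difference of -0.19. The Vhl effect was higher untreated than with DMSO for 5 of 55, among them Ckap2l (1.44, adjusted p = 0.00368) and Troap (1.67, adjusted p = 0.0179).

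Of 32 S phase genes, 28 were tested untreated and 31 in the drug experiment. In untreated Vhl cells 0 of 28 were called, with a median log2 change of 0.18. With DMSO 14 of 31 fell and 0 rose, with a median of -0.36, among them Rrm1, the large subunit of ribonucleotide reductase (-0.48), and Mcm2, of the replicative helicase (-0.45). AZD8330 lowered 31 of 31 in Vhl cells (median -2.21) and 29 of 31 in control cells (median -2.23). Mcm5 changed by -3.22 in Vhl cells and -2.78 in control cells. In the interaction 2 of 31 were called, Mcm6 (-1.74) and Mcm5 (-0.44), both with the stronger fall in Vhl cells. The Vhl effect differed between the experiments for 0 of 28.

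Regulators of mitotic entry and exit moved in several directions. Of 15 brakes on Cdk1 and factors of mitotic exit, 4 rose and 1 fell in Vhl cells with DMSO, against 13.8% and 18.5% of all genes. Cdkn1a, the Cdk inhibitor p21, had 303, 299.6 and 289.7 CPM in Vhl cells and 164, 166 and 167 CPM in control cells (log2 change 0.85, SE 0.05, adjusted p = 3.86e-08), while Wee1, the kinase that inhibits Cdk1, had 72.2, 71.2 and 64.2 CPM in Vhl cells and 97.9, 99.3 and 91.9 CPM in control cells (log2 change -0.48). Cdkn1b, the Cdk inhibitor p27, rose by 0.24, and Rprm by 0.41. With AZD8330 against DMSO, 2 rose and 9 fell in each genotype, against 25.8% and 25.6% of all genes in Vhl cells and 29.1% and 31.7% in control cells. Wee1 changed by -2.99 in Vhl cells and -2.87 in control cells, and Mastl, the Greatwall kinase, by -2.54 and -2.60. Cdkn1a fell too, less in Vhl cells (-0.42) than in control cells (-0.84; adjusted p of the difference = 0.00159). Under AZD8330 it had 229, 219 and 216 CPM in Vhl cells and 86.3, 91.4 and 100.4 CPM in control cells (log2 change 1.26). In untreated cells 0 of the 15 were called.

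Of 15 subunits of the anaphase-promoting complex and its partner enzymes, 9 fell and 0 rose in Vhl cells with DMSO, by small amounts such as -0.35 for Anapc1. AZD8330 lowered 10 and raised 1 in Vhl cells, and lowered 11 and raised 2 in control cells. Ube2s, the ubiquitin chain-elongating enzyme, changed most clearly, by -1.10 in Vhl cells and -1.53 in control cells. In the interaction 4 differences were called, all of them positive, among them Ube2s (0.43, adjusted p = 0.000325) and Anapc5 (0.30). Of 11 tested genes of the DREAM complex and its partners, 3 fell with DMSO in Vhl cells, near the 18.5% of all genes, among them Tfdp1, the dimer partner of E2F factors (-0.22). AZD8330 lowered 5 and raised 1 in Vhl cells, and lowered 8 and raised 3 in control cells, with Tfdp1 at -0.94 and -1.41 and Rbl1, p107, at -1.90 and -2.06. Of 10 tested cohesin genes 5 fell in Vhl cells with DMSO, and AZD8330 lowered 8 and raised 0 in Vhl cells, and lowered 7 and raised 1 in control cells, among the lowered Cdca5, sororin (-3.32 and -2.84), and Esco2, the cohesin acetyltransferase (-3.79 and -3.02). None of the subunits of the anaphase-promoting complex, DREAM or cohesin genes was called in untreated cells, and none differed in Vhl effect between the experiments.

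Markers of other states moved with the drug. The 7 astrocyte markers summed to 1671 to 1781 CPM with AZD8330 and 1015 to 1091 CPM with DMSO in Vhl cells, and to 2029 to 2119 CPM with AZD8330 and 911 to 924 CPM with DMSO in control cells. The 8 oligodendrocyte markers summed to 374 to 406 CPM with AZD8330 and 164 to 182 CPM with DMSO in Vhl cells, and to 444 to 477 CPM with AZD8330 and 144 to 149 CPM with DMSO in control cells. Of 6 tested, 2 rose and 0 fell in Vhl cells, against 25.8% and 25.6% of all genes. In control cells 3 rose and 0 fell, against 29.1% and 31.7%. The myelin gene Mog was at 0 in all groups except Vhl cells with DMSO. The 7 neuron markers summed to 2508 to 2538 CPM with AZD8330 and 1475 to 1612 CPM with DMSO in Vhl cells, and to 2116 to 2127 CPM with AZD8330 and 1007 to 1059 CPM with DMSO in control cells. OPC markers summed to 9007 to 9126 CPM with AZD8330 and 8914 to 9094 CPM with DMSO in Vhl cells, and to 8336 to 8414 CPM with AZD8330 and 8063 to 8240 CPM with DMSO in control cells. These sums hold markers that moved in opposite directions. Of 9 OPC markers, 3 rose and 3 fell in Vhl cells, and 4 rose and 4 fell in control cells, against the same shares of all genes. The 6 neural progenitor markers summed to 3507 to 3735 CPM with AZD8330 and 1965 to 2006 CPM with DMSO in Vhl cells, and to 3191 to 3267 CPM with AZD8330 and 1929 to 1952 CPM with DMSO in control cells. The 6 pluripotency markers summed to 4.77 to 6.203 CPM with AZD8330 and 15.9 to 20.03 CPM with DMSO in Vhl cells, and to 5.896 to 7.32 CPM with AZD8330 and 19.2 to 23.8 CPM with DMSO in control cells. Of the 3 tested, Esrrb fell and Nanog rose in both genotypes and Fgf5 fell in Vhl cells, while Pou5f1 and Zfp42 were at 0 in all 6 groups. Mesenchymal and endothelial markers summed to at most 48.9 and 17.8 CPM. The part of these shifts in the fall of mitosis and G2 genes was not tested.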

How the data were processed

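RNA-seq values of 18 libraries in 6 groups of 3 were read from 2 deposited tables. Per the submitters' processing notes, the authors used Salmon 0.14.1 and mm10. The tables are named as TPM, but the deposited values are estimated counts, as their library totals show; no source used here states how transcripts were combined into genes. The 2 mean columns of the authors were not used. Counts were rounded, scaled by TMM, kept at a mean of at least 1 CPM and fitted by quasi-likelihood in edgeR 4.0.16 (R 4.3.3), with Benjamini-Hochberg adjustment over all tested genes and a threshold of 0.05. The untreated table was fitted alone and the 4 groups of the drug table together. The difference between experiments was tested with limma 3.58.1. DESeq2 1.42.0, limma on log2(CPM + 1) or log2(CPM + 0.1), other scaling, no filter, a replicate block and leaving out libraries were alternatives. The procedure was tested on simulated data. Members and lists were chosen with earlier results of these data known. Named were a set of 28 members covering every role, the 5 largest called changes per comparison and up to 4 called genes per further list. Intervals for a count of 0 use 3 counts and cover counting error only.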

Additional observations from a re-analysis of the deposited data

Results flagged for a closer look

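The effect of AZD8330 differed between Vhl and control cells, by the interaction term of edgeR, for 16 of 51 tested members, all with the more negative change in Vhl cells; over all tested genes 4.96% were called more negative and 7.81% less negative. On the log2 scale the difference, Vhl minus control, was -1.46 for Birc5, -0.74 for Kif4, -0.70 for Cenpa, -0.69 for Mybl2, -0.64 for Cenpf and -0.64 for Mki67. It was -0.61 for Ect2, -0.60 for Ccna2, -0.59 for Cdk1, -0.55 for Kif11 and -0.49 for Top2a.

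The Vhl effect differed between the untreated and the DMSO experiment, by the joined fit of limma, for 13 of 51 tested members, all higher untreated, against 0.348% of all tested genes. On the log2 scale the difference, untreated minus DMSO, was 2.09 for Ccnb2, 1.77 for Cenpa, 1.75 for Plk1, 1.67 for Hmmr and 1.66 for Kif23. It was 1.41 for Kif20a, 1.35 for Tpx2 and 1.26 for Ccna2.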

How the results depend on the processing

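No result that was called, in the fit given or in an alternative run, changed direction. Estimates not called changed sign for 8 named results, with Cdc25b untreated at -0.0011 and between 0.0048 and 0.30 under 8 of 13 alternatives, and Birc5 with DMSO at -0.02 and up to 0.05 under 10 of 19. Over 193 pairs of a named member and a comparison, 77 alternative values lost a call and 83 gained one. In untreated cells the 0 members called higher by edgeR became 5 with DESeq2, 2 with no filter, 10 without both A libraries and 0 to 1 on leaving out single libraries. Members rising in Vhl cells under AZD8330, and those with a positive interaction, were 0 by edgeR and 1 each with no filter; rising members under AZD8330 were also 0 to 1 on leaving out single libraries, and the gene was Pttg1 each time. The 13 members whose Vhl effect was higher untreated than with DMSO became 26 with edgeR on the joined table, 35 without both untreated A libraries, 20 with no filter, and 0 to 26 on leaving out single libraries. On leaving out single libraries, falls in Vhl cells with DMSO numbered 36 to 40, falls with AZD8330 49 to 52 in Vhl and 50 to 51 in control cells, falls in Vhl cells under AZD8330 41 to 44, and negative interactions 12 to 24. The cause of these changes was not tested, and the shares of all genes called in these alternatives are not given here. Libraries with the same letter did not deviate together (correlations of deviations from -0.042 to 0.053), so letters were not taken as pairs. With the letter as a replicate block the counts were 0 rising untreated, 38 falling with DMSO, 50 falling with AZD8330 in each genotype, 43 falling in Vhl cells under AZD8330, 18 negative interactions and 16 differences between experiments.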

Other observations

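In the authors' deposited table of the untreated experiment, the mean column headed VHL held 6635 for Mki67, which is the mean of the counts of control B, control C and Vhl A; the mean of the 3 Vhl libraries was 11890, and the authors' control column held 6631.67. The same equality held, within 0.001 counts, in all 26451 rows with a value above 0 in that column, whereas 1882 rows equalled the mean of the 3 Vhl libraries. The authors' deposited table had a control column equal to the mean of the 3 control libraries in 26064 rows. Neither column entered any comparison here. Libraries were taken by their labels, so the direction of the untreated Vhl comparison, and its sign opposite to that with DMSO, rest on those labels. Untreated libraries labelled Vhl held 87.3, 90.2 and 74.1 CPM of Vhl itself, in the order of their letters, and those labelled control held 117, 121 and 125 CPM. Flt1, a receptor gene known to be induced by HIF and named after its values were seen, had 0.788, 6.42 and 8.77 CPM in the libraries labelled Vhl and 0.0717, 0 and 0.0652 CPM in those labelled control. For both genes the 2 labelled groups did not overlap, and Vhl A had the lowest Flt1 level of its group. Over all tested genes, the groups were apart with Vhl higher for 7.92% and with Vhl lower for 7.86%. No other HIF target is given here, and whether the labels are right was not tested.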
